A study of Mus musculus with 24 samples.

Results

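The earliest and the latest of 3 stages of B-cell development were compared in WT mice by ATAC-seq, an assay in which a transposase cuts and tags accessible DNA. The 8 libraries labelled WT Pre-pro-B 1 to 4 and WT Small pre-B 1 to 4 were taken from the 24 libraries of the series. The series covers bone marrow of WT and Mki67-/- mice, sorted at the pre-pro-B, the pro-B and the small pre-B stage, with 4 libraries in each group, and every label gives the cell type as lymphoid progenitor cells. Mki67-/- mice lack the gene of Ki-67, a nuclear protein found in cycling cells. The labels do not tie libraries to mice. The p-values therefore reflect only the spread between these libraries, which may be technical, and the stages may share mice. In every library the overlapping peaks were merged on chromosomes 1 to 19 and X, and the 40000 peaks with the highest -log10 q were kept. The 8 lists were joined to 53879 regions, each found in at least 2 libraries of a stage. Of 21631 protein-coding genes, 15712 had a peak within the gene body or 10 kb on either side in at least 4 of the 8 libraries.

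Pre-pro-B cells are lymphoid progenitors of the bone marrow that carry some B-lineage surface markers but have not yet lost the ability to form other lymphoid cells. Commitment follows when the factors E2A, Ebf1 and Pax5 are switched on in turn. Pro-B cells then join the Igh gene segments, and small pre-B cells, which have stopped dividing, join the light-chain segments, mostly at Igk. Accessibility of chromatin to a transposase marks promoters and enhancers that are held open by bound factors, and the RAG recombinase also needs open segments to cut.

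Depth is given here as the background coverage recovered from each peak list. It was 2.52 to 5.30 in pre-pro-B and 2.40 to 3.70 in small pre-B libraries, with means of 4.29 and 3.12 (exact permutation p = 0.143). WT Pre-pro-B 1, 3 and 4 (5.08, 4.26 and 5.30) lay above every small pre-B library, so equal depth is not shown. The deposited lists held 144898 to 206148 entries in pre-pro-B and 84038 to 109713 in small pre-B libraries. Pre-pro-B peaks were wider: the median width among the kept peaks was 772 ± 65.9 bp against 433 ± 32.2 bp (SD, n = 4 libraries each, exact permutation p = 0.0286, the smallest that 4 against 4 libraries allow). One merged peak held a mean of 2.94 summits in pre-pro-B and 1.55 in small pre-B libraries. The kept lists of the same stage shared more regions (Jaccard index, the shared over the joined regions, 0.709 to 0.812 in pre-pro-B and 0.768 to 0.811 in small pre-B) than lists of different stages (0.354 to 0.422). WT Pre-pro-B 2 had the lowest coverage of its group and the lowest mean Jaccard index with its own stage, 0.716, and WT Small pre-B 1 had 85621 merged peaks before the selection against 63332 to 69941 in the other 3 libraries of its stage.

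The stage labels were checked against marker genes by the number of peaks at each gene, summed over a list. The 6 committed B-cell markers reported (Pax5, Ebf1, Cd79a, Cd79b, Vpreb1 and Igll1) held 20 to 25 peaks in pre-pro-B and 41 to 48 in small pre-B libraries, and all 6 gained peaks by the test described with the genes below. The 5 pre-pro-B markers (Flt3, Kit, Ptprc, Cd93 and Il7r) held 21 to 22 against 17 to 19 peaks, with Flt3 losing and Cd93 gaining. The 5 small pre-B markers (Il2ra, Rag1, Rag2, Ms4a1 and Cd74) held 12 to 15 against 13 to 18 peaks and none passed the test, so the small pre-B label rests on the committed B-cell genes and the Igk locus. Markers of other cells were present at both stages in part. The 4 T-cell markers held 12 to 13 against 3 peaks, with Cd3e and Cd8a at 0 in every small pre-B library, and the 4 NK and innate lymphoid markers held 9 to 13 against 4 to 5, with Ncr1 at 0 in small pre-B. The 6 myeloid markers held 14 to 16 against 11 to 12 peaks (S100a8 at 0 at both stages, Lyz2 at 0 in small pre-B), the 4 plasmacytoid dendritic markers 18 to 20 against 20 to 24, the 4 erythroid markers 6 against 5 to 7 (Gata1 at 0 at both stages) and the 3 mature B-cell markers 7 to 8 against 7 to 10. The libraries are bulk, so fewer cells of a type and fewer open copies per cell cannot be told apart.

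Promoters are shown for 8 genes whose kept peak was gained or lost there between the stages, 4 B-cell genes and 4 genes of T, NK or myeloid cells, so that their sequences can be read beside the change. Among 32619 RefSeq promoter windows (250 bases before to 50 after a start, GRCm38.p6), 378 (1.16%) had a kept peak in all 4 small pre-B and no pre-pro-B library, here called gained, and 638 (1.96%) had one in all 4 pre-pro-B and no small pre-B library, here called lost. Cd79a (chr7:24897247-24897546, + strand) encodes a signalling chain of the B-cell receptor, and Cd22 (chr7:30878979-30879278, - strand) an inhibitory co-receptor. Vpreb3 (chr10:75948050-75948349, + strand) and Igll1 (chr16:16863936-16864235, - strand) belong to the surrogate light chain family; all 4 promoters were gained. Lck (chr4:129558323-129558622, - strand) encodes the main Src-family kinase of T cells, Cd3g (chr9:44980382-44980681, - strand) a chain of the T-cell receptor complex, Ncr1 (chr7:4337465-4337764, + strand) the NK receptor NKp46 and Cd33 (chr7:43533122-43533421, - strand) a lectin of myeloid cells; all 4 promoters were lost. Each sequence runs 5′ to 3′ on the gene's strand, and capitals mark every match of the 11 motifs listed after the sequences.
Cd79a: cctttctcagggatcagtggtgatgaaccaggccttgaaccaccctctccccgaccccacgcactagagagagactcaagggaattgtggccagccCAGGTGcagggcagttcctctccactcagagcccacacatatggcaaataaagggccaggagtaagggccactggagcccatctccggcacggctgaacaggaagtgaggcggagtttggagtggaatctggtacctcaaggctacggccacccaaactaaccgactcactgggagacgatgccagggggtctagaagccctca
Cd22: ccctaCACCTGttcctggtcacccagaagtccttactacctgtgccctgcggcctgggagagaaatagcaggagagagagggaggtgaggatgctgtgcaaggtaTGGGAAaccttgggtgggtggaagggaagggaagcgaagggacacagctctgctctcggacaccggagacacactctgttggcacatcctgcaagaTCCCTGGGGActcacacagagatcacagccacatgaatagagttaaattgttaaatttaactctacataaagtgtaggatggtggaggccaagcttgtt
Vpreb3: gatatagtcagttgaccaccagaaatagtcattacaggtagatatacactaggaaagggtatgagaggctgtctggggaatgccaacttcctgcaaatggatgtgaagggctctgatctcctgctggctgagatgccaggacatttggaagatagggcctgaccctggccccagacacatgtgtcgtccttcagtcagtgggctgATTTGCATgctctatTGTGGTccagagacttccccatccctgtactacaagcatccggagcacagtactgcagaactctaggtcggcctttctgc
Igll1: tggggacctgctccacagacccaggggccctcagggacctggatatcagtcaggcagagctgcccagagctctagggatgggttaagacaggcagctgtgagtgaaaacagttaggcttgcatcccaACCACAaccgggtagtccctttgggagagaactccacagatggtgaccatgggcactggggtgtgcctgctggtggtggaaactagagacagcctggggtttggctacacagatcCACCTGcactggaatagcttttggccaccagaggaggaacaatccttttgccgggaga
Lck: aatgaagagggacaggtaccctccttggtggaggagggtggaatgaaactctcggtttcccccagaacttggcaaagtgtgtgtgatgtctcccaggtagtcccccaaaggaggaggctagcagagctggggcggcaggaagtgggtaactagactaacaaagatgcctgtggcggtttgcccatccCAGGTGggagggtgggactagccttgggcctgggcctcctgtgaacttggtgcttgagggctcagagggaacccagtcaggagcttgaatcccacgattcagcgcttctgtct
Cd3g: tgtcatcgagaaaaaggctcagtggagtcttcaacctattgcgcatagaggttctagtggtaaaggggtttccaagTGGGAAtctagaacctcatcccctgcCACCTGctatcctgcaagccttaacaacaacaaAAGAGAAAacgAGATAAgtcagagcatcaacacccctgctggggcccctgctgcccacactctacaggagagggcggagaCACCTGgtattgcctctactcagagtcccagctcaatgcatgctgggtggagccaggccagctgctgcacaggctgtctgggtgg
Ncr1: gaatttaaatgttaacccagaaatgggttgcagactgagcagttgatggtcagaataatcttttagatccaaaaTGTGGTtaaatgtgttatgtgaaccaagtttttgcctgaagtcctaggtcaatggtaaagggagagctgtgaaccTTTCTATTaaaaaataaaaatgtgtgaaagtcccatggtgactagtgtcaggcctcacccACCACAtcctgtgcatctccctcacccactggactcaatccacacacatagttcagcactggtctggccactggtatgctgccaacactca
Cd33: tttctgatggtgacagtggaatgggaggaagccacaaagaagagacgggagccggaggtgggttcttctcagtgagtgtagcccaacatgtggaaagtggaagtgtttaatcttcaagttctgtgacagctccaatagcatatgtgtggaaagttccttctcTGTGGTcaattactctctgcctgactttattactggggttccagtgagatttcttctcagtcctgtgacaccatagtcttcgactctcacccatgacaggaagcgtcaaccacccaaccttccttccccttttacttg

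The motifs were searched on both strands as fixed letters, with N for any base. The Ebf1 motif TCCCNNGGG was in 15.9% of gained, 6.11% of lost and 6.60% of all promoters, and the E-box CAGGTG, bound by E2A, was in 27.5%, 21.5% and 20.3%. The octamer ATTTGCAT, bound by Oct factors, was in 2.38% of gained, 0.470% of lost and 1.75% of all promoters. Other motifs were in a larger share of lost than of gained promoters: GAGGAAGT of PU.1 was in 5.96% of lost, 2.91% of gained and 3.22% of all, TGTGGT of Runx in 22.3%, 14.6% and 16.6%, AANNGAAA of IRF factors in 33.4%, 12.96% and 23.9%, and AGATAA of GATA factors in 11.9%, 3.97% and 11.2%. TTGCNNAA of C/EBP factors was in 11.6% of lost, 7.94% of gained and 10.9% of all promoters, TGGGAA of Ikaros in 27.7%, 22.2% and 25.4%, and GTAAACA of Foxo in 3.45%, 3.17% and 3.67%. ATCAAAG of Tcf/Lef was in 2.04% of lost, 3.44% of gained and 3.76% of all promoters. GC content differed between the classes, with a median of 61.5% in gained, 52.7% in lost and 53.0% in all promoters, and its part in the motif shares was not tested. In the printed promoters, the Cd22 window held the Ebf1 motif on both strands at overlapping positions, with an E-box and an Ikaros match. An E-box also stood in the Cd79a, Igll1 and Lck windows and at 2 places in Cd3g, and a Runx match in Vpreb3, Igll1, Cd33 and, at 2 places, Ncr1. Vpreb3 also held the octamer, Cd3g an Ikaros, a GATA and an IRF match, and Ncr1 an IRF match. A match describes the letters and does not show binding.

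**Figure D1:**
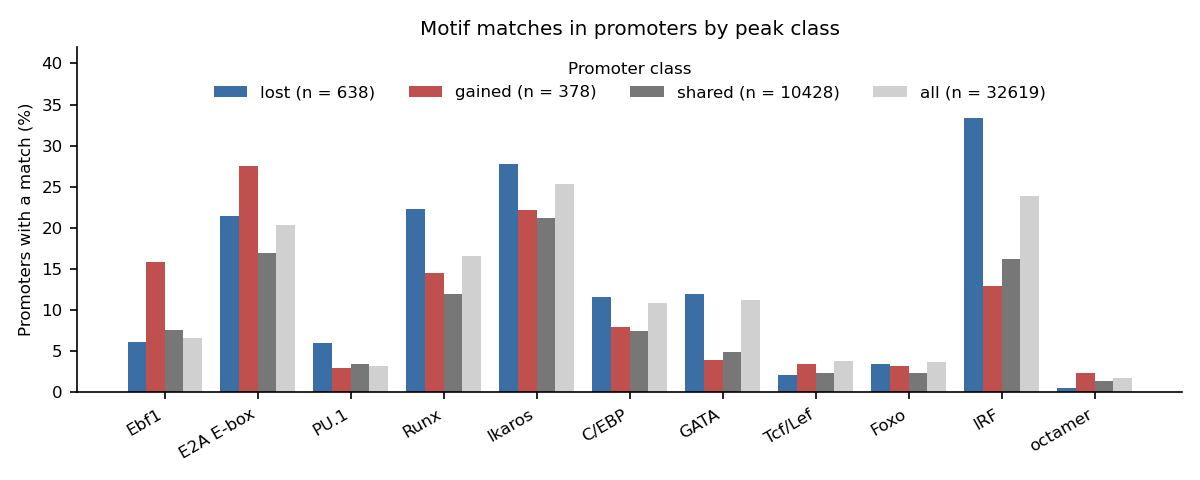
Share of promoter windows (y axis, percent) that hold each of 11 motifs (x axis), for lost, gained, shared (a peak in all 8 libraries) and all promoters. The Ebf1 bar is tallest for the gained class at 15.9%, and the IRF bar for the lost class at 33.4%.

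Most promoters of listed genes were neither gained nor lost, and over all promoters 1.16% were gained and 1.96% lost. Of the promoters of B-lineage factors 4 of 31 were gained, of pre-B and receptor genes 5 of 19 and of V(D)J recombination genes 1 of 19, and none of these lists had a lost one. Of T, NK and innate lymphoid promoters 5 of 28 were lost, and of myeloid promoters 2 of 21, with none gained. Cell-cycle genes had 2 gained and 1 lost of 24, and 1 of 18 promoters of mature B-cell genes was lost. The gained promoters were Erg, Foxp1, Pax5 and Pou2af1 among B-lineage factors, Cd22, Cd79a, Cd81, Igll1 and Vpreb3 among pre-B and receptor genes, Rag2, and the cell-cycle genes Cdkn2a and E2f2. The lost promoters were Cd3g, Gata3, Lck and Ncr1 (the last with 2 overlapping starts), Cd33 and Itgam of myeloid cells, Hoxa10, Crlf2, Cd38, Gpr183 and Cdkn2c. Several of these genes have other starts. The other Lck window (chr4:129573592-129573891) had no kept peak at either stage. The 4 peaks that Lck kept in each small pre-B library, counted over its body and 10 kb on each side, lay outside both windows.

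Between the stages, 10026 of 53879 regions (18.6%) had a peak in all 4 pre-pro-B libraries and in no small pre-B library, and 7785 (14.4%) had the reverse pattern. These are called lost and gained regions below. A further 20572 regions (38.2%) had a peak in all 8 libraries. Lost and gained regions lay mostly away from gene ends: 7.61% of lost and 9.39% of gained regions were within 1 kb of a gene end, against 45.6% of the regions in all 8 libraries. Lost regions had a median width of 822 bp and gained regions of 428 bp. A lost region has left the 40000 strongest peaks, which is not the same as being closed: 6037 lost regions (60.2%) had no deposited peak of any strength in the small pre-B libraries, and 1521 (15.2%) had one in all 4. Of the gained regions, 3946 (50.7%) had no deposited peak in any pre-pro-B library and 2147 (27.6%) had one in all 4.

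The kept peaks covered less DNA at the small pre-B stage. They covered 34.7, 28.5, 33.9 and 35.6 Mb in the pre-pro-B libraries, and 19.7, 19.6, 19.3 and 21.7 Mb at the later stage, with no overlap between the stages (33.2 ± 3.21 against 20.1 ± 1.10 Mb, exact permutation p = 0.0286). The share of peaks at gene ends was 28.3 ± 0.289% in pre-pro-B and 30.1 ± 0.470% in small pre-B libraries, and the share between genes was 32.7 ± 0.178% and 31.4 ± 0.364% (exact permutation p = 0.0286 each). With all deposited peaks in place of 40000, the difference in the gene-end share was 3.58 percentage points (exact permutation p = 0.0571) and in the share between genes -0.917 points (exact permutation p = 0.286).

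The lost and gained regions were then looked up in libraries that had not chosen them. In WT Pro-B libraries, 8166 lost regions (81.4%) had no peak in any of 4 and 1072 (10.7%) had one in all 4, so most had left the strongest peaks by the stage in between. Gained regions were divided: 4431 (56.9%) had a peak in all 4 pro-B libraries and 2053 (26.4%) in none. In Mki67-/- mice, 8319 lost regions (83.0%) had a peak in all 4 pre-pro-B libraries and 9027 (90.0%) in no small pre-B library, and 7225 gained regions (92.8%) had none in the pre-pro-B and 6422 (82.5%) one in all 4 small pre-B libraries. Both conditions together held for 7434 lost regions (74.1%), where 16.4% of all regions had that pattern in Mki67-/-, and for 5961 gained regions (76.6%), where 13.3% of all regions had it. No lost or gained region had the opposite pattern in Mki67-/-.

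**Figure D2:**
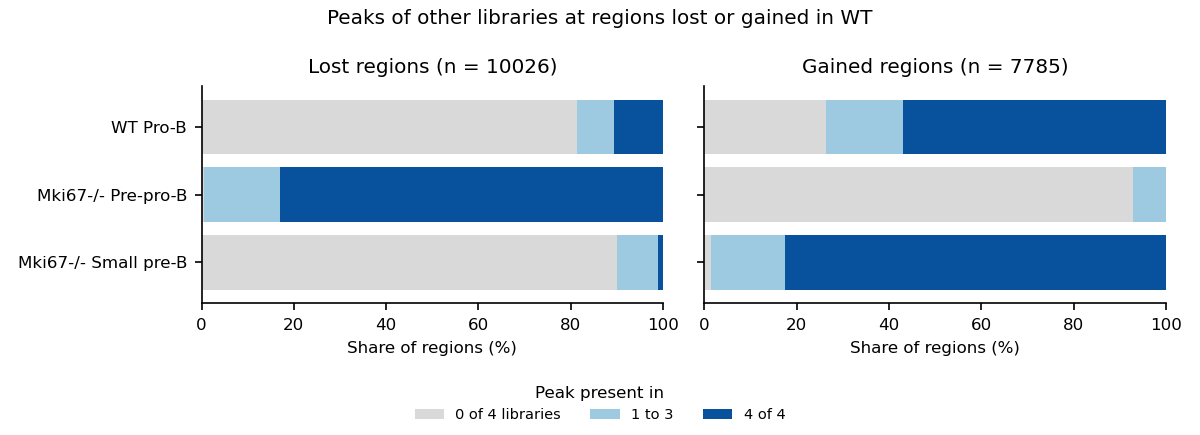
Share of lost regions (left) and gained regions (right) with a peak in 0, 1 to 3 or 4 of the 4 libraries of groups that did not choose them (x axis, percent). WT Pro-B lacked 81.4% of the lost regions in all libraries and had 56.9% of the gained regions in all libraries.

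The strongest lost regions, by mean rank within the lists that held them, were at chr14:47920505-47921353 (183940 bp from Ktn1), chr6:89140282-89141267 (175045 bp from Plxna1), chr1:193851274-193852306 (480918 bp from Camk1g), chr7:110823631-110824862 (in the body of Ampd3) and chr7:44674678-44675719 (3805 bp from Myh14), all on mm10. The Camk1g and Myh14 regions had no deposited peak in any small pre-B library, whereas the Ampd3 region had one in all 4 small pre-B libraries and was among the kept peaks of each WT Pro-B library. The strongest gained regions were at chr6:90764050-90765197 and chr6:90660519-90661545, in the body and at an end of Iqsec1, chr9:58198000-58198668 in Islr2, chr6:120618720-120619390 near Cecr2 and chr15:31279550-31280366 near Dap. Each WT Pro-B library kept a peak at all 5, and the Iqsec1 gene-end region had no deposited peak in any pre-pro-B library.

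Near B-cell genes the strongest gained regions lay at the start of Pou2af1 (chr9:51212961-51213961), in the bodies of Tcf3 (chr10:80429729-80430520) and Ebf1 (chr11:44950302-44950744), and next to Cd79b (chr11:106308175-106308720) and Pik3ap1 (chr19:41390677-41391293). The Tcf3, Ebf1, Cd79b and Pik3ap1 regions had no deposited peak in any pre-pro-B library, while that of Pou2af1 had a weaker one in all 4. Some B-lineage genes also lost regions, among them Pax5 (chr4:44624087-44625360, no deposited peak in small pre-B), Bach2 (chr4:32342917-32344457 and chr4:32574735-32575761) and Runx1 (chr16:92786406-92787394). The strongest lost regions near genes of other lineages included Mecom (chr3:30412792-30413824), Cd8b1 (chr6:71339054-71339930 and chr6:71313326-71314348), Itgam (chr7:128079924-128080605) and Ccr2 (chr9:124098837-124099667), none with a deposited peak in small pre-B. In windows of 1 Mb, of which 2128 held a region, the median was 4 lost and 2 gained of 20 regions. The windows with most gained regions lay on chromosome 6 at 70 to 71 Mb (35 of 73) and 68 to 69 Mb (34 of 48), both overlapping Igk, followed by chromosome 5 at 136 to 137 Mb (32 of 89, with Cux1 and Col26a1). Those with most lost regions lay on chromosome 11 at 115 to 116 Mb (26 of 101, with Grb2 and Cd300lf), chromosome 8 at 122 to 123 Mb (25 of 91, with Cbfa2t3) and chromosome 15 at 78 to 79 Mb (22 of 97).

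At the antigen receptor loci the largest change was at Igk, the kappa light-chain locus (chr6:67555636-70726754). Igk held 12, 15, 12 and 9 kept peaks in the pre-pro-B and 147, 160, 163 and 171 in the small pre-B libraries. The stages were far apart, with 12 ± 2.45 against 160.25 ± 9.98 peaks, a ratio of 13.4 (exact permutation p = 0.0286, adjusted over 6 loci 0.0343). Of 102 Igk V segments, 8, 10, 7 and 5 had a peak within 500 bp in the pre-pro-B and 69, 70, 70 and 73 in the small pre-B libraries. The J and C part of Igk, at 1 peak in each pre-pro-B library, had 1, 2, 3 and 2 in small pre-B. Igk held 114 gained regions of 161 and no lost one. Igl, the lambda locus (chr16:19061752-19260844), held 7, 7, 7 and 6 against 10, 13, 12 and 13 peaks (adjusted exact permutation p = 0.0343).

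The T-cell receptor loci lost peaks. Tcra/Tcrd (chr14:52427967-54224198) held 35, 27, 30 and 32 peaks in the pre-pro-B and 4, 6, 5 and 5 in the small pre-B libraries, 6.2 times fewer. Of its 119 V segments, 16, 11, 12 and 11 had a peak within 500 bp in the pre-pro-B and 1, 0, 0 and 1 in the small pre-B libraries. Tcrb (chr6:40891296-41558371) held 9, 9, 11 and 8 against 4, 5, 5 and 5 peaks, and Tcrg (chr13:19178042-19352343) 9 in each against 3, 3, 3 and 4. None of these loci overlapped between the stages (adjusted exact permutation p = 0.0343 each). With 20000 peaks per library Igk was still higher by 68.25 peaks but no locus passed the adjustment, as fewer loci reached the smallest p, and Igl turned to -1.

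Igh, the heavy-chain locus (chr12:113256204-116009954), held 32, 45, 30 and 34 peaks in the pre-pro-B and 31, 29, 26 and 26 in the small pre-B libraries, ranges that overlapped (exact permutation p = 0.0571). Its parts moved apart. The V segments held 23, 36, 21 and 24 against 20, 19, 17 and 18 peaks, and 14, 25, 13 and 16 against 4, 4, 3 and 4 of 120 V segments had a peak within 500 bp (exact permutation p = 0.0286). The D and J part held 4, 4, 4 and 5 against 0, 1, 0 and 0 peaks, whereas the constant-region part held 3 in each pre-pro-B against 7, 6, 6 and 5 in small pre-B libraries. Segment joining removes the DNA between the segments, and removed and closed DNA cannot be told apart in these lists. The Igh total passed the test without WT Pre-pro-B 3 (-9 peaks), with all deposited peaks (-53.5) and with peaks ranked by fold enrichment (-23.5), and turned to 1.5 with 20000 peaks. In the stage between, WT Pro-B libraries held 94.25 ± 4.65 Igh, 25.25 ± 4.43 Igk, 14.5 ± 1.00 Tcra/Tcrd and 3 Tcrg peaks (n = 4). Tcrb, at 10 ± 1.41, was not below its pre-pro-B mean of 9.25 there, and Igl held 5 peaks in each, below its pre-pro-B mean of 6.75.

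**Figure D3:**
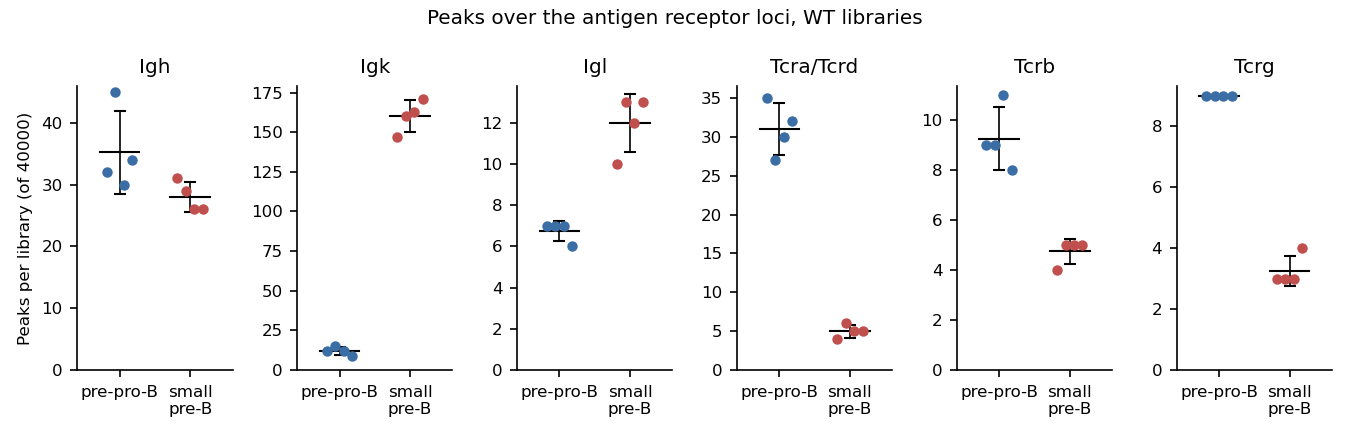
Kept peaks (y axis, of 40000 per library) in each of 6 antigen receptor loci, 1 point per library, with the mean and SD of each stage (n = 4). Igk holds 9 to 15 peaks in pre-pro-B and 147 to 171 in small pre-B libraries, Tcra/Tcrd 27 to 35 and 4 to 6, and the ranges of Igh overlap.

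Gene by gene, the number of kept peaks was compared with limma on log2(peaks + 1). At an adjusted p under 0.05, 3766 of 15712 genes (24%) gained and 3304 (21%) lost peaks, with a median log2 difference over all genes of 0. Gene counts of peaks are small whole numbers, so a gene at 2 peaks in each library of one stage and 3 in each of the other has no spread and passes: 1784 gained and 1702 lost genes differed by under 1.5 peaks. A stricter test that took the spread as at least that of a Poisson count, chosen after seeing the data, left 127 gained (0.808%) and 128 lost genes (0.815%). The groups did not overlap at 2853 genes with more peaks in small pre-B (18.2%) and 2423 with fewer (15.4%). The balance between the directions depended on the counted unit: gained genes made up 53.3% of the calls, 33.6% with all deposited peaks (2368 gained and 4672 lost, all-gene median -0.10 on the log2 scale) and 65.1% with covered base pairs scaled to the same length (all-gene median 0.16). When joint regions were counted, so that a wide peak counts once at both stages, 3160 genes (20.2%) gained and 3934 (25.1%) lost. Neighbouring genes can share peaks, and limma p-values of genes with equal numbers in every library of both stages are not printed. A gene with no peak at a stage was tested only if all 4 libraries of the other stage had one. At such genes, among them Pou2af1, Socs2, Cd33, Cd8b1 and Ncr1, the filter itself sets the lack of overlap.

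Among 22 B-lineage factors, 16 (72.7%) gained and 3 (13.6%) lost peaks, against 24% and 21% of all genes tested. The median log2 difference was 0.51 (14 gained and 4 lost by joint regions, 8 and 4 with all deposited peaks). Ebf1 (chr11:44618100-45008096), the factor that starts the B-cell programme, held 5, 6, 4 and 4 peaks in the pre-pro-B and 13, 15, 15 and 16 in the small pre-B libraries. All small pre-B libraries were above all pre-pro-B libraries (log2 difference 1.46 ± 0.13 SE, limma adjusted p = 0.000108, 0.00147 by the stricter test). Ikzf3 (chr11:98464610-98546031), which encodes Aiolos, held 3, 5, 3 and 3 against 10, 12, 12 and 11 (1.47 ± 0.15). Spib (chr7:44525995-44532087), an Ets factor related to PU.1, held 3, 3, 2 and 3 against 8, 10, 9 and 8 (1.38 ± 0.12), and Erg (chr16:95359169-95586600), another Ets factor, 7, 6, 7 and 8 against 15, 13, 17 and 16 (1.02 ± 0.10). Pou2af1 (chr9:51213690-51240079), the B-cell co-activator of Oct factors, held none in any pre-pro-B library and 3 in each small pre-B library. These 5 were the B-lineage factors that also passed the stricter test. With all deposited peaks, the log2 differences of Ikzf3 (0.06) and Erg (0.15) no longer passed.

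Other factors of the list moved less. Irf8 held 3, 4, 2 and 4 against 7, 8, 10 and 10 peaks, Bcl11a 4, 4, 5 and 5 against 10, 9, 9 and 9, Irf4 3 in each against 4, 6, 5 and 6, and Ikzf1, which encodes Ikaros, 7, 8, 8 and 7 against 11, 12, 11 and 11. Bcl11a was at -0.028 on the log2 scale with all deposited peaks and did not pass. Tcf3, which encodes E2A, went from 4 to 6 peaks in every library. Pax5 (chr4:44524748-44710694), the guardian of B-cell identity, held 8, 7, 8 and 7 against 10, 10, 8 and 12 peaks, overlapping ranges with a limma adjusted p of 0.0448. Its call was lost without any one library other than small pre-B replicate 3 (limma adjusted p 0.0832 to 0.112, against 0.00978 without that library), and the locus had 4 lost and 5 gained regions. The factors that lost peaks were Bach2 (chr4:32238413-32586109), a repressor active at several B-cell stages, with 19, 21, 20 and 18 against 15, 14, 12 and 13, Runx1 (chr16:92601466-92826074) with 11, 15, 14 and 11 against 9, 8, 8 and 9, and Spi1 (chr2:91082374-91115759), which encodes PU.1, with 6, 5, 6 and 5 against 4 in each. Spi1 turned to more peaks when 20000 or 30000 peaks, single summits, covered base pairs or a ranking by fold enrichment were used, and Spib and Runx1 reversed under the ranking by fold enrichment.

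Of 22 genes of the pre-B and B-cell receptor, 16 (72.7%) gained and 1 (4.55%) lost peaks, against 24% and 21% of all genes tested. The median log2 difference was 0.60 (17 gained and 1 lost by joint regions, 7 and 3 with all deposited peaks). None passed the stricter test. Vpreb3 (chr10:75943024-75949657) held 2 peaks in each pre-pro-B library and 6, 6, 5 and 5 in small pre-B libraries (1.11 ± 0.06), and Cd79a (chr7:24897497-24901858) 4, 4, 3 and 4 against 7 in each (0.76 ± 0.08). Pik3ap1 (chr19:41272541-41385102), an adaptor of PI3 kinase, held 9, 8, 8 and 9 against 13, 15, 16 and 14 (0.70 ± 0.07, limma adjusted p = 0.000278). None of these 3 overlapped between the stages. The surrogate light chain genes Igll1 (2, 3, 2 and 2 against 4 in each) and Vpreb1 (1, 2, 1 and 1 against 3 in each) lie close together, so their windows share peaks. The kinase genes Syk (9 in each against 9, 9, 11 and 9) and Lyn (4, 5, 4 and 4 against 4, 5, 4 and 5) did not pass the test, and Cd24a, at 1, 2, 2 and 2 against 1 in each, was the gene that lost peaks, with 1 to 2 peaks at most. The calls of Pik3ap1, Igll1, Vpreb1 and Cd24a were lost with all deposited peaks.

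Of 19 genes of V(D)J recombination, 7 (36.8%) gained and 3 (15.8%) lost peaks, against 24% and 21% of all genes tested (median 0.31). The recombinase genes did not pass: Rag1 (chr2:101638252-101649532) held 2 peaks in each of the 8 libraries, and its neighbour Rag2 (chr2:101624712-101632528) 1 in each pre-pro-B library against 1, 2, 3 and 2 in small pre-B. Each gene's window nevertheless had 1 lost and 1 gained region. Dntt, which encodes the terminal transferase that adds bases at joints, held 5 in each against 7, 7, 5 and 6. The end-joining polymerase genes Polm (2 against 5 in each) and Poll (3, 4, 3 and 3 against 5 in each) and the ligase gene Lig4 (2 in each against 3, 4, 4 and 3) gained peaks, whereas Xrcc5, which encodes Ku80, held 3, 2, 2 and 3 against 1 in each. Polm turned to fewer peaks under 2 other rankings, and the call of Xrcc5 was lost with all deposited peaks.

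Of 18 genes of the IL-7 receptor and Jak-Stat pathway, 6 (33.3%) gained and 1 (5.56%) lost peaks, against 24% and 21% of all genes tested. The median was 0.13, and 3 to 5 gained when a library was left out. Il7r, the receptor chain needed by progenitors, held 2, 2, 1 and 2 against 2 in each. Socs2 (chr10:95383903-95417321), a feedback inhibitor of Stat5 signalling, held no kept peak in any pre-pro-B library and 5, 4, 4 and 4 in small pre-B libraries (stricter adjusted p from the Poisson-floored test 0.00385). The survival genes moved in opposite directions: Bcl2 (chr1:106538176-106714290) held 13, 12, 12 and 12 against 5, 5, 6 and 6 peaks (-1.03 ± 0.07), and Bcl2l1 (chr2:152758732-152833803), which encodes Bcl-xL, 7, 9, 7 and 6 against 14, 15, 15 and 12 (0.87 ± 0.12, limma adjusted p = 0.00153). Neither gene overlapped between the stages. Bcl2 had 7 lost and no gained regions.

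Genes of stem and multipotent progenitors mostly lost peaks: of 21 tested, 11 (52.4%) lost and 2 (9.52%) gained, against 21% and 24% of all genes tested. The median was -0.45, with 14 lost and 2 gained by joint regions, and 10 and 1 with all deposited peaks. The count of losses fell to 6 without WT Pre-pro-B 3 and to 7 without WT Pre-pro-B 4, WT Small pre-B 2 or WT Small pre-B 4. Meis1 (chr11:18880428-19019651), a homeobox factor of stem cells, held 10 peaks in each pre-pro-B library and 3, 4, 4 and 5 in small pre-B libraries (-1.15 ± 0.12, limma adjusted p = 0.00025). Mecom (chr3:29951296-30509759), a zinc finger factor of stem cells, held 6, 6, 6 and 4 against 2, 1, 1 and 1 (-1.54 ± 0.18), and Flt3 (chr5:147330741-147400489), the growth factor receptor of lymphoid progenitors, 10, 10, 10 and 9 against 7, 6, 7 and 7 (-0.47 ± 0.06). Each of these 3 genes had separate stages. Hoxa7 went from 5 to 3 peaks in every library and Hoxa9 from 4, 5, 5 and 5 to 3, 2, 3 and 2, and their windows share peaks. The calls of Flt3 and Hoxa7 were lost with all deposited peaks. Kit, the stem cell factor receptor, held 2, 4, 3 and 3 against 2 in each and did not pass. None of the list passed the stricter test.

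Of 21 myeloid genes tested, 7 (33.3%) lost and 3 (14.3%) gained peaks, against 21% and 24% of all genes tested (median 0). With all deposited peaks 10 lost and 1 gained. Leaving out 1 pre-pro-B library, whichever it was, brought the 7 losses to 3. Cd33 (chr7:43527399-43537424) held 2 peaks in each pre-pro-B and none in any small pre-B library, and Elane, the neutrophil elastase gene, 4, 5, 5 and 3 against 2 in each. Csf1r, the receptor of macrophage growth factor, went the other way, from 1 to 3 peaks in every library, and reversed to -0.69 with all deposited peaks. Among defining genes of mature myeloid cells, Itgam held 7, 8, 7 and 8 against 5, 6, 7 and 6 peaks, Lyz2 1, 1, 0 and 1 against 0 in each, and Ctsg and S100a8 0 in all 8 libraries.

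T-cell, NK and innate lymphoid genes had the highest share of losses of the 13 lists by kept peaks per gene, though not by joint regions, where the stem and multipotent progenitor list had 14 of 21. Of 26 tested, 15 (57.7%) lost and 5 (19.2%) gained, against 21% and 24% of all genes tested. The median was -0.41, with 14 lost and 5 gained by joint regions, and 13 and 0 with all deposited peaks. Without any one pre-pro-B library 9 losses were called among the 22 genes that then reached the minimum of 4 libraries. Cd8b1 (chr6:71322788-71337492) held 6, 6, 6 and 7 peaks in pre-pro-B and none in any small pre-B library, and its neighbour Cd8a 3, 3, 2 and 3 against none. Zbtb16 (chr9:48651797-48836225), which encodes the innate lymphoid factor PLZF, held 4, 7, 7 and 7 against 1 in each (-1.83 ± 0.16, limma adjusted p = 0.00013). Cd8b1 and Zbtb16 were the 2 genes of the list that also passed the stricter test, where Cd8b1 entered only through its peaks in pre-pro-B. Cd4 (chr6:124864693-124888247) held 6, 6, 7 and 6 against 2 in each, and Gata3, the main T-cell GATA factor, 2, 3, 3 and 3 against 1 in each. The stages did not overlap at 13 lost and 4 gained genes of the 26 tested. Over all genes, 15.4% had fewer and 18.2% more peaks in small pre-B without overlap, so the 4 gained genes do not stand out. Among the genes that gained peaks were Tcf7 (1, 2, 2 and 2 against 5, 5, 4 and 5), a Wnt-responsive factor of T and B progenitors, Cd5 (3, 5, 4 and 3 against 7, 6, 7 and 6) and Id2 (2 in each against 3, 4, 4 and 4), an inhibitor of E proteins. Under all deposited peaks the calls of Gata3, Tcf7 and Cd5 were lost and Id2 turned to -0.13 on the log2 scale. The 4 T-cell markers given above held 12 to 13 against 3 peaks and the 4 NK and innate lymphoid markers 9 to 13 against 4 to 5, and the part that T or NK cells among the sorted pre-pro-B cells may have in the result was not tested.

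**Figure D4:**
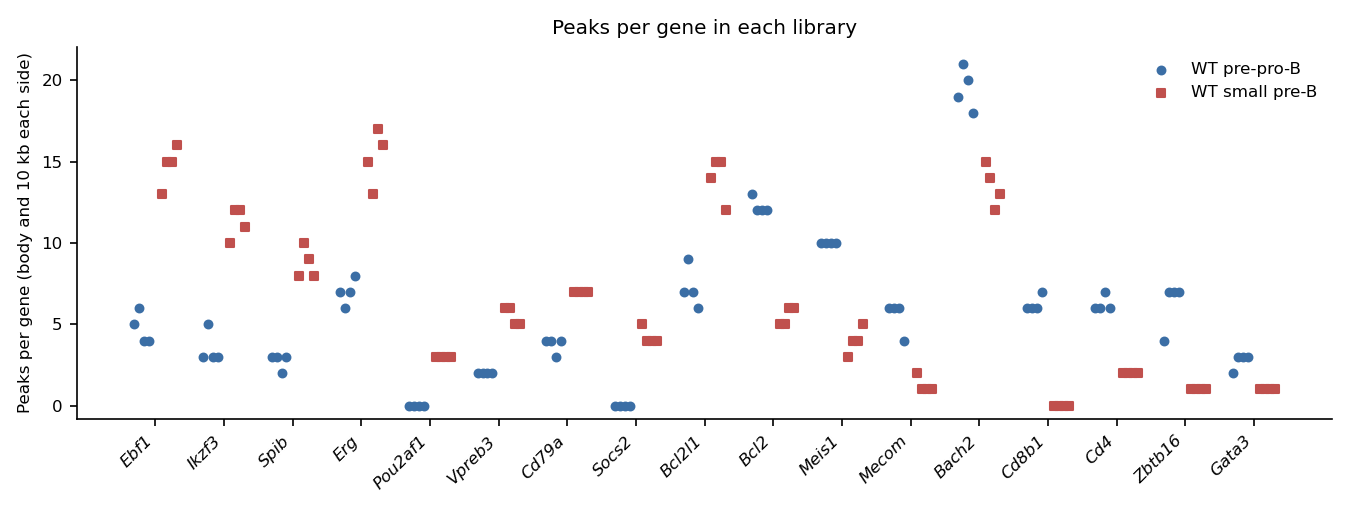
Kept peaks (y axis, peaks per gene) in each library, 1 point each, at 17 named genes (x axis) for WT pre-pro-B (circles) and WT small pre-B (squares). Ebf1, Ikzf3 and Erg lie higher in every small pre-B library, and Cd8b1, Meis1 and Bcl2 higher in every pre-pro-B library.

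**Figure D5:**
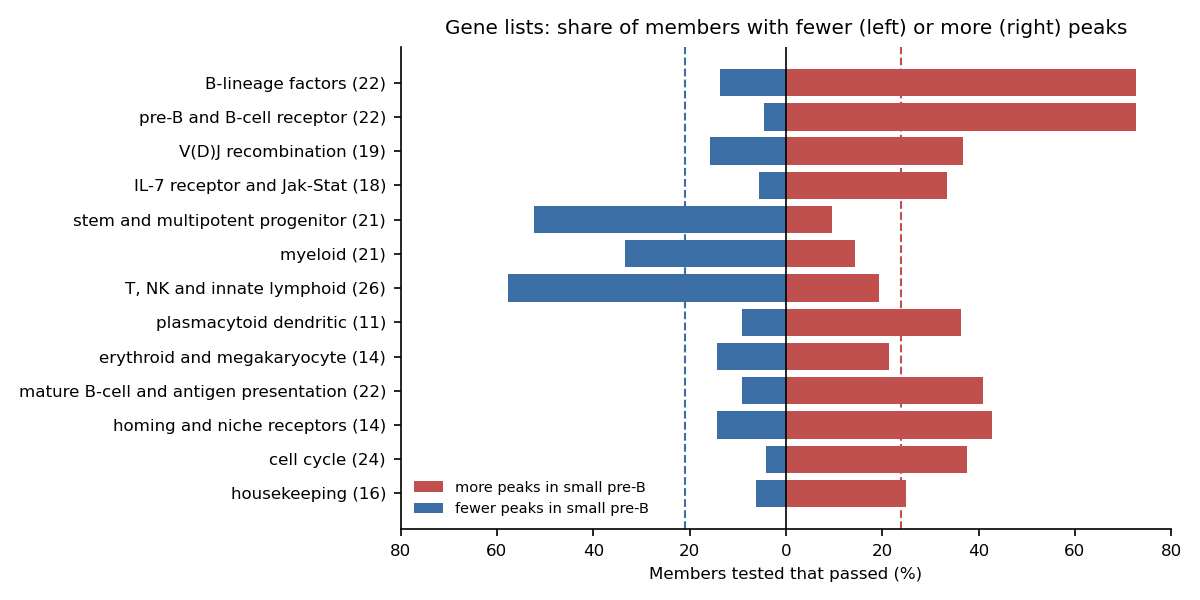
Members of each of 13 gene lists with fewer (left) or more peaks (right) in small pre-B, as a percentage of the members tested (x axis; number tested in brackets), with dashed lines at the share over all genes (21% and 24%). B-lineage factors and pre-B and receptor genes reach 72.7% for gains, and T, NK and innate lymphoid genes 57.7% for losses.

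Over all genes tested, 24% gained and 21% lost peaks, which is the share to set beside the lists that follow. Of 24 cell-cycle genes, 9 (37.5%) gained and 1 (4.17%) lost peaks (median 0.11). Aurkb, a mitotic kinase gene, held 4, 4, 5 and 4 against 8, 9, 9 and 9 peaks, Cdkn2a, which encodes the cycle inhibitor p16, 0, 0, 1 and 1 against 3, 4, 3 and 3, and Mki67 (chr7:135689784-135716450) 1, 1, 1 and 2 against 1 in each, which did not pass. Of 22 genes of mature B cells and antigen presentation, 9 (40.9%) gained and 2 (9.09%) lost (median 0.23). Among those that gained, Tnfrsf13c, which encodes the BAFF receptor, went from 2 to 4 peaks in every library. Ciita, the switch of MHC class II genes, held 6, 5, 5 and 6 against 8, 10, 9 and 8. Of 14 homing receptors 6 (42.9%) gained and 2 (14.3%) lost (median 0.25), and with all deposited peaks 1 gained and 5 lost. Cxcr4, the receptor that holds progenitors in the marrow, held 3 in each against 5, 7, 5 and 6. Plasmacytoid dendritic genes gave 4 gains (36.4%) and 1 loss (9.09%) of 11 (3 and 4 by joint regions, 1 and 6 with all deposited peaks). Erythroid and megakaryocyte genes gave 3 gains (21.4%) and 2 losses (14.3%) of 14 (2 and 3 with all deposited peaks). Housekeeping genes gave 4 gains (25%) and 1 loss (6.25%) of 16. With all deposited peaks the mature B-cell list had 4 gains and 4 losses, the cell-cycle list 5 and 4 and the housekeeping list 3 and 3, and the calls of Aurkb, Cdkn2a and Ciita were lost. In that unit gains outnumbered losses in the cell-cycle list but not in the mature B-cell, homing, plasmacytoid, erythroid and housekeeping lists. Losses also outnumbered gains over all 17056 genes tested in that unit, with 2368 gained and 4672 lost, so these list counts do not set the members apart.

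The largest losses of peaks were at genes outside the lists. Frmd4b (chr6:97286867-97617657) held 20, 16, 17 and 18 against 4, 6, 6 and 7 peaks, Dlg2 (chr7:90476188-92449246), a scaffold protein gene, 14, 15, 15 and 14 against 5, 2, 3 and 4, and Cadm1 (chr9:47530170-47862280), an adhesion molecule gene, 11, 10, 11 and 12 against 1, 1, 1 and 0. Fyb (chr15:6522796-6665608), an adaptor of T cells and myeloid cells, held 11, 12, 11 and 10 against 1 in each. St8sia1 held 14 in each against 3, 5, 4 and 4, and Hdac9, a class IIa histone deacetylase gene, 17, 20, 18 and 16 against 6, 8, 9 and 8. Slc9a9, Ppm1h, Babam2 and 1700025G04Rik completed the 10. Groups that did not overlap were a condition of this choice. All 10 also passed the stricter test, which used the same values that ranked them. Cadm1 had the steepest of these changes, at -2.83 ± 0.25 on the log2 scale (limma adjusted p = 0.00011).

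Among the largest gains, Slit1 (chr19:41597824-41747275), a guidance cue gene, held 3, 4, 4 and 4 against 15, 17, 19 and 17 peaks, Wdr66 (chr5:123251725-123327484) 2 in each against 13, 12, 12 and 14, and Tmem108 (chr9:103482936-103761900) 6, 4, 6 and 6 against 17, 18, 19 and 16. Gse1 (chr8:120228501-120581383) had the most peaks of the 10 at both stages, with 28, 26, 29 and 28 against 41, 47, 47 and 45. Mtss1, Col26a1, Padi2, Ebf1 and Fam53b also belonged to the 10, chosen by the same rule, and passed the stricter test. Itga9 (18, 14, 11 and 14 against 20, 25, 26 and 27) did not (adjusted p of the Poisson-floored test 0.0561) and fell to -0.10 on the log2 scale with all deposited peaks, under which Fam53b also turned and the call of Gse1 was lost (limma adjusted p = 0.057).

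At some long genes many sites were lost while others were gained. Foxp1 (chr6:98925342-99522746), a forkhead factor needed in early B cells, had 9 lost and 16 gained regions, with 35, 35, 40 and 34 against 38, 50, 50 and 49 peaks and a limma adjusted p of 0.0342. That call held without pre-pro-B replicate 3 or small pre-B replicate 1 and was lost without any one of the other libraries (0.0882 to 0.0944) and with all deposited peaks (0.053). Snx29 had 12 lost and 6 gained regions, and Nav2 12 and 7. Elmo1, an activator of Rac, had 7 of each and held 21, 22, 22 and 21 against 23, 26, 22 and 23 peaks, which did not pass the test. Tbc1d1 had 6 lost and 8 gained regions at 14, 14, 14 and 16 against 17, 15, 17 and 16 peaks and did not pass either. At these 5 genes lost and gained regions stood within one gene.

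In the Mki67-/- libraries, which entered none of these fits, 3609 of the 3766 gained genes (95.8%) had more and 3149 of the 3304 lost genes (95.3%) fewer peaks in small pre-B than in pre-pro-B on average. The 4 Mki67-/- libraries of each stage did not overlap, in the WT direction, at 2245 gained (59.6%) and 1980 lost genes (59.9%), against 16.8% and 14.6% of all genes. Ebf1 had a mean of 5 peaks in Mki67-/- pre-pro-B and 16.8 in Mki67-/- small pre-B libraries, Cd8b1 6 and 0, Bcl2 11 and 5.75 and Slit1 4.25 and 18.5. At the receptor loci, Igk had 13.5 ± 2.38 and 153 ± 6.22, and Tcra/Tcrd 35.5 ± 3.11 and 7.75 ± 1.71 peaks. Igh had 38.25 ± 4.92 in Mki67-/- pre-pro-B and 48.25 ± 4.19 in small pre-B libraries, a log2 change of 0.33 against -0.31 in WT. The difference between the genotypes in that change did not pass (exact permutation p = 0.051, adjusted over 6 loci 0.306). In WT Pro-B libraries Ebf1 had a mean of 17.5, Pax5 13 and Slit1 19 peaks, all above their mean in pre-pro-B, while Cd8b1, Cd8a and Ncr1 had none.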

How the data were processed

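Each library has 1 list of peaks, called per library by the authors; per the submitters' processing notes, reads were trimmed with Trimmomatic and peaks called with MACS2 on mm10, and deepTools, DiffBind and DESeq2 are also named. Versions and the sort gates are not given in the sources used here. Per the deposited narrowPeak format, the authors' lists give a score, a fold enrichment (a ratio of the summit to its local background), the −log10 p-value and the −log10 q-value of each summit, which were used only to rank peaks within a list. Coverage, the most frequent background that made fold enrichment and −log10 p match within 0.01 for 3000 summits, stands in for depth; since it counts no reads, counting intervals were left out.

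Overlapping entries were merged (chromosomes 1 to 19 and X), and the 40000 peaks of highest −log10 q kept in every library. Joining used an overlap of 1 bp. Genes (RefSeq, GRCm38.p6, the assembly of mm10) carry no strand in the table used, so 1 kb around either gene end was counted. Peaks per gene were tested with limma 3.58.1 (R 4.3.3) with a trend, on log2 with a pseudocount of 1, with Benjamini-Hochberg adjustment and a threshold of 0.05; other steps used Python 3.11.15, pandas 2.3.3 and numpy 2.4.6, and two-sided exact permutation tests. The tests were tried on simulated data. The stricter test set the variance of a library to at least 1 on a square-root scale. Named genes are the 6 loci, Mki67, the 10 genes per direction with the largest difference among called genes whose groups do not overlap, up to 4 called members per list and direction by adjusted p, defining members that were not called, the 5 genes with most lost and gained regions, the 5 top-ranked regions per direction overall and near listed genes, and the 3 windows of 1 Mb per direction with most of them; members given beside these, such as Irf8, Bcl11a and Gata3, were chosen after their values were seen. Members and lists were chosen with earlier results of these data known. All 259 entries of the 13 lists matched a gene. Some listed genes are not reported by name here. The 4 Mki67-/- Pro-B libraries were not used here.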

Additional observations from a re-analysis of the deposited data

Results flagged for a closer look

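In 80 groups of 4 libraries the gap between the most distant library and its nearest neighbour was divided by the range of the group and compared with Dixon's critical value for 4 values; chance passes it in about 1 of 20 groups, and small whole numbers with 3 equal values give 1.0 by construction. The number of summits per merged peak in WT pre-pro-B libraries gave 0.838, with 3.07, 2.44, 3.08 and 3.19 and WT Pre-pro-B 2 the lowest. WT Pre-pro-B 2 also had the lowest coverage of its group, 2.52.

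Foxp1 gave 0.833 in WT pre-pro-B (35, 35, 40 and 34 peaks) and 0.917 in WT small pre-B libraries (38, 50, 50 and 49). A ratio of 1.0 was found in pre-pro-B libraries for Igl (7, 7, 7 and 6 peaks), Ppm1h (16, 15, 16 and 16), 1700025G04Rik (12, 13, 12 and 12), Slit1 (3, 4, 4 and 4), Mtss1 (11, 11, 9 and 11), Tmem108 (6, 4, 6 and 6) and Tbc1d1 (14, 14, 14 and 16). In small pre-B libraries it was found for Tcrb (4, 5, 5 and 5), Tcrg (3, 3, 3 and 4), Cadm1 (1, 1, 1 and 0), Mtss1 (23, 23, 23 and 22), Col26a1 (11, 15, 15 and 15) and Nav2 (26, 28, 26 and 26). WT Small pre-B 1 was the lowest of its group at Foxp1, Col26a1 and Tcrb, and had more merged peaks than the other 3.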

How the results depend on the processing

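Joint regions, summits, covered base pairs and the Poisson-floored test were chosen after seeing the data. The count of gained genes (3766) moved by over 1.5 times to 2010 with gene bodies alone, 127 with the Poisson floor, 6545 with covered base pairs, 2325 with 20000 peaks and 2368 with all deposited peaks; that of lost genes (3304) moved to 1988, 128 and, with 20000 peaks, 2027. An exact permutation test of each gene gave 0 calls in either direction, since the smallest adjusted p that 5276 separate genes allowed was 0.0851; 2853 and 2423 genes had an unadjusted p of 0.0286. With coverage as a covariate, 3083 genes gained and 2552 lost peaks. Leaving out 1 library gave 2610 to 3117 gained and 2006 to 2750 lost genes. Losses fell to 2014, 2168, 2006 and 2045 without WT Pre-pro-B 1, 2, 3 and 4, with 15165 to 15180 genes tested in place of 15712. Gains fell to 2913, 2610, 2647 and 2662 without WT Small pre-B 1, 2, 3 and 4, with 15332 to 15354 genes tested. The part of the minimum of 4 libraries with a peak in these falls was not tested. Gained regions (7785) moved to 4574 with 20000 peaks and were 7910 to 8992 with 1 library left out; lost regions (10026) moved to 4677 with 20000 peaks and 21816 with all deposited peaks, and were 10150 to 10873. Covered length differed by -12.3 to -14.7 Mb with 1 library left out. With all deposited peaks the gene-end share differed by 3.58 and the share between genes by -0.917 points, neither passing.

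No pairing by replicate number was visible: deviations of same-numbered libraries correlated at -0.028 to 0.013 and 0 small pre-B libraries correlated best with their own number. Differently numbered libraries correlated at -0.034 to 0.039, near 0 as well, so these values cannot tell whether same-numbered libraries share mice. The submitted data carry a second numbering that differs from the title numbers used here. The replicate block may therefore pair the wrong libraries, and pairing by the second numbering was not tested. With the replicate number as a block, 2810 genes gained and 2400 lost peaks. The block allows 4 pairs a smallest exact p of 0.125, so covered length (-13.1 Mb), gene-end share (1.87 points), share between genes (-1.32 points) and Igk (148.25), Igl (5.25), Tcra/Tcrd (-26), Tcrb (-4.5) and Tcrg (-5.75 peaks) could not pass in it. With 20000 peaks the loci differed by 1.5 (Igh, reversed), 68.25 (Igk), -1 (Igl, reversed), -9 (Tcra/Tcrd), -1.25 (Tcrb) and -3.5 (Tcrg), none passing the adjustment. Igh passed at -53.5 with all deposited peaks, at -23.5 ranked by fold enrichment and at -9 without WT Pre-pro-B 3; with 1 library left out it was -9 to -4.

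Of 102 named genes, 44 reversed in at least 1 setting, on the log2 scale and with no cause tested. With all deposited peaks these were Itga9 -0.10, Fam53b -0.075, Tbc1d1 -0.62, Socs1 -0.15, Procr -0.56, Csf1r -0.69, Cebpb -0.085, Klf4 -0.10, Id2 -0.13, Tcf4 -0.20, Ly6d -0.13, Tfrc -0.41, Bcl6 -0.14, Itga4 -0.67, B2m -0.33 and Gapdh 0.061. With summits they were Nav2 0.081, Spi1 0.82, Cd24a 1.62, Polm -0.16, Paxx 0.42, Ccr2 0.29, Zap70 -0.31, Pacsin1 -0.23, Ly6d -0.62, Bst2 0.20, Nfe2 -0.27, Bcl6 -0.16, Il4ra -0.14, Cd83 0.29, Cd86 0.37, Itgal -0.066, Cdkn1a -0.10, E2f1 -0.38, Ywhaz -0.063 and Hnrnpa1 -0.38. With 20000 peaks they were Elmo1 -0.56, Spi1 0.56, Cd24a 1.00, Zap70 -0.58, Bcl6 -1.08, Cd86 0.042, Itgal -1.19 and Cdkn1a -0.58. Ranked by fold enrichment they were Spib -0.15, Spi1 0.21, Runx1 0.24, Polm -0.15, Hoxa7 1.15, Ccr2 0.25, Elane 1.08, Ly6d -0.21, Cd83 0.44 and Cd44 0.11. With covered base pairs they were Spi1 0.14, Cd24a 0.40, Irf7 -0.050 and Cdkn1a -0.10, and with 30000 peaks Spi1 0.28, Paxx 0.15, Bcl6 -0.21, Cd83 0.29 and Cdkn1a -0.15. With 25 kb on each side they were Cd24a 0.35, Paxx 0.24, Ly6d -0.15, Epor 0.080, Ptk2 0.25, Top2a 0.26 and B2m -0.080, with gene bodies Ccr2 1.00, with joint regions Irf7 -0.42 and with peaks within 150 bp merged Irf7 -0.10. Pou2af1, Cd8b1, Socs2, Cd33, Ncr1 and Pf4 give no value when a library of the stage that holds them is left out.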
